A study of Mus musculus with 2 samples.

Results

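The Hox cluster genes of the mouse were read in the YY1 ChIP-seq peaks of muscle stem cells (MuSCs). Members were the protein-coding genes of the GENCODE M21 basic annotation (GRCm38, the same sequence as mm10) whose symbol is Hox, a letter from a to d and a number. This gave 39 of the 21951 protein-coding genes. They lie in 4 clusters, with 11 genes in Hoxa, 10 in Hoxb, 9 in Hoxc and 9 in Hoxd, and they fall into 13 paralogue groups, which are genes of the same number in different clusters.

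ChIP-seq recovers with an antibody the DNA that a protein occupies, so that occupied sites appear as pileups of DNA fragments, called peaks. There was 1 YY1 library and no replicate, so errors between mice or libraries could not be computed and conditions could not be tested against each other. By the study's methods, the MuSCs were sorted by their YFP label from Ctrl mdx mice and pooled. These mice came from crosses with mdx mice of the C57BL/10 ScSn strain, and the background after crossing is not given in the sources used here. They carried the mdx allele of Dmd, which removes dystrophin from muscle, with Pax7-CreERT2 and R26-YFP, and were Yy1+/+. Ctrl mice of the study received tamoxifen, which is not stated separately for the mice of this library. Cre was driven from Pax7, so the YFP label marks cells in which that gene was active when tamoxifen was given. The labels differ in that they describe wild-type MuSCs and culture on coated plates, and the age of the mice used for the library is not given in the sources used here. The background library, called input in the labels and IgG in the methods, was not analysed here. No expression was measured in these data, so neither the cell type nor the activity of the Hox genes could be checked.

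Hox genes encode homeodomain transcription factors that give cells their position along the body axis. Within a cluster they are ordered on the chromosome as they are used from head to tail, and low numbers mark the anterior end. Polycomb complexes keep Hox genes silent where they are not used and trithorax proteins keep them active elsewhere. Adult muscle stem cells are known to keep Hox expression that reflects the position of their muscle. YY1 is a zinc finger factor whose fly homologue, Pleiohomeotic, brings Polycomb proteins to the Hox genes of the fly. YY1 in mammals is found mainly at active, CpG-rich promoters and takes part in loops between enhancers and promoters. Its motif is AANATGGC, where N is any base, and ATGGC is the core.

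A gene was called bound if the summit of a YY1 peak, its highest point, lay within 1000 bp of a transcript start. A single Hox gene, Hoxa4, was bound. Its promoter carries the only peak inside any cluster and within 50 kb beyond the cluster ends. The peak is shown by the 151 bases around its summit, read on the minus strand, which is the strand of Hoxa4, at chr6:52191962-52192112 (GRCm38). CG dinucleotides are in capitals, because CpG density is the feature that the peak shares with most bound promoters.
Hoxa4 peak: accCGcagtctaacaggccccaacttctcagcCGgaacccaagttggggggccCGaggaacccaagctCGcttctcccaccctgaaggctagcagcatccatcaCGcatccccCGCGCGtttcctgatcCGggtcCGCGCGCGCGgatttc
This stretch holds 14 CG dinucleotides and has a GC content of 64.9%. Neither AANATGGC nor the core ATGGC occurs on either strand in the whole peak or within 100 bp of its summit.

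AANATGGC was found near the start sites of 6 Hox genes, all of them unbound. Within 1000 bp of a start it occurred in 40.5% of bound coding genes and in 34.3% of unbound ones. A search of both strands within 1000 bp of every Hox start site found 7 distinct sites, shown with 10 bases on each side and the motif in capitals. They are printed on the strand that reads AANATGGC, to show how the flanks differ between genes.
Hoxa3: actcggtggtAAGATGGCgtctgtgtaa
Hoxb6: ggaagaaaagAAGATGGCgacggagaaa
Hoxc10: atgggatttgAAAATGGCcttgatgatt
Hoxd10: atgagatttgAAAATGGCcttgagccgc
Hoxd12: gctcaacttgAACATGGCagtgcaagtg
Hoxd3, first site: gaagaggaaaAACATGGCgctcgcgagc
Hoxd3, second site: tcagcttcccAAGATGGCctgtgttggg
In GRCm38, the Hoxa3 stretch is chr6:52213515-52213542 on the minus strand, 413 bp upstream of the start and within an exon of the antisense transcript Hoxaas3. The Hoxb6 stretch is chr11:96292275-96292302 on the plus strand, 188 bp upstream of the start. The Hoxc10 stretch is chr15:102966650-102966677 on the minus strand, 133 bp upstream of the start. The Hoxd10 stretch is chr2:74691839-74691866 on the minus strand, 72 bp upstream of the start. The Hoxd12 stretch is chr2:74675587-74675614 on the plus strand, 587 bp downstream of the start and within the coding sequence. The first Hoxd3 stretch is chr2:74711722-74711749 on the plus strand, 192 bp upstream of one of its start sites, and the second is chr2:74738680-74738707 on the minus strand, 926 bp upstream of another. Apart from Hoxa3 and Hoxd12, these sites overlap no exon. The nearest YY1 summit was 21.5 kb from the Hoxa3 site, 206 kb from the Hoxc10 site, 216 kb from the Hoxb6 site and 764 to 827 kb from the sites of the Hoxd cluster.

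The stretches of Hoxc10 and Hoxd10, paralogues that help pattern the lower trunk and hindlimb, matched at 22 of 28 positions. They share an unbroken run of 19 bases.
Hoxc10 and Hoxd10: gatttgAAAATGGCcttga
Among the 21951 coding genes, this run occurs within 1000 bp of a start in 2, Hoxc10 and Hoxd10. In the third member of the group, Hoxa10, the closest stretch matched it at 12 of 19 positions. Both paralogues lacked a peak. The 250 bases upstream of the Hoxd10 start in RefSeq (GRCm38, chr2:74691641-74691890, plus strand) are printed because they are a CpG-rich promoter that holds a motif and had no peak. The motif is in capitals and reads GCCATTTT on this strand.
Hoxd10 upstream: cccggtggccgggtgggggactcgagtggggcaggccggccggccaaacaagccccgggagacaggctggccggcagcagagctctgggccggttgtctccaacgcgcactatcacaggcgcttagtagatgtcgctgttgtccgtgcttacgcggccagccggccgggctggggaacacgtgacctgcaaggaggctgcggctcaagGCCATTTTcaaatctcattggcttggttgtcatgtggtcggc
It has a GC content of 65.6% and 20 CG dinucleotides. That is 0.755 times the number that its C and G content would give, a ratio called observed over expected CpG.

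The Hoxa4 peak spans chr6:52191923-52192249 (327 bp) with its summit at 52192037. Hoxa4 (ENSMUSG00000000942.10) occupies chr6:52189671-52191753 on the minus strand, and the summit lies 284 bp upstream of its start. The nearest edge of the peak is 170 bp from that start, so the peak covers no part of the first exon. By the RefSeq start of Hoxa4, 52191703, the distance is 334 bp. Longer transcripts of neighbours run over the same bases. The peak lies in the second intron of the annotated Hoxa3 and Gm28308 transcripts, between exon 3 at chr6:52183708-52183790 and exon 2 at chr6:52200837-52200938, and in the first intron of the antisense gene Hoxaas3 on the other strand. It overlaps no annotated exon.

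The summit held 11 fragments over a local background of 1.54 fragments, a fold enrichment of 4.73. The peak caller adds 1 to both numbers before it divides them, so that fold enrichments are smaller than the plain ratio. The background of 1.54 fragments was shared by 29.3% of peaks and is not a level particular to this site. The exact 95% Poisson interval of the fragment number is 5.49 to 19.7 and covers counting error only. The peak caller gave an exact Poisson p of 8.76e-08, with q = 0.00043, for the pileup within a single pair of libraries, and these values do not describe variation between animals. The peak is of ordinary size for this library. Over all 4681 peaks the median was 14 fragments and a fold enrichment of 5.10. A lower fold enrichment was found in 38.2% of peaks and a higher one in 58.2%, and 170 peaks had the same fragment number over the same background. Its sequence can be mapped without ambiguity as far as it was checked. None of it is soft-masked as repeat, and each of 12 stretches of 50 bases taken from it occurs at a single place in the genome.

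Hoxa4, which acts in patterning of the neck region of the axis, was the bound member of a paralogue group of 4. For Hoxb4, Hoxc4 and Hoxd4 the nearest summit was 242, 138 and 811 kb away, and none of the other 12 groups had a bound member. The summit was 12.6 kb from the start of Hoxa5, 16.7 kb from that of Hoxa6 and 21.1 kb from that of Hoxa3. It was 27.2 kb from that of Hoxa2.

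**Figure D1:**
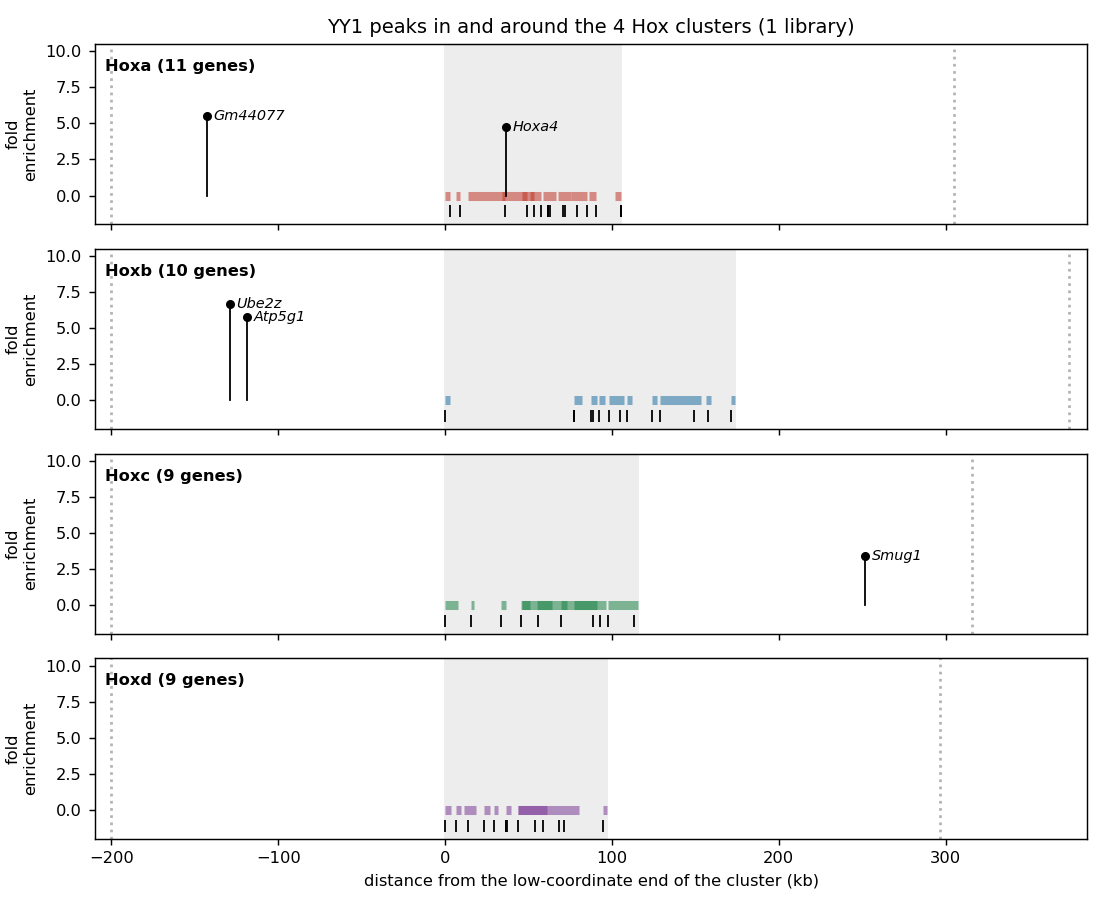
Each panel is a Hox cluster, with the distance from its low-coordinate end in kb on the x axis and the fold enrichment of each YY1 peak on the y axis. Black pins are peaks named by the nearest gene, coloured bars are Hox gene bodies, ticks below them are start sites, grey shading is the cluster and dotted lines stand 200 kb beyond its ends. The Hoxa4 peak, at 4.73, is the only pin inside a shaded span, and the Hoxd panel has no pin.

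Bound Hox genes were 1 of 39, or 2.56% (95% exact Clopper-Pearson interval 0.0649% to 13.5%). The background was 18.8% of all protein-coding genes, 4119 of 21951, of which 13 are mitochondrial. Hoxa4 was also the bound Hox gene with a window of 500 bp (background 17.7%), 2000 bp (19.3%) or 5000 bp (20.4%), with peaks of q under 0.05 (18.4%) or 0.01 (17.4%), and with a single start site per gene (17.4%). With a fold enrichment of 5 or more there was none (11.1%). Within the spans there was 1 peak in 0.492 Mb, or 2.03 per Mb, beside 1.72 per Mb over the chromosomes. Per 100 coding genes there were 2.56 peaks in the spans and 21.3 over the genome. By length the clusters held about as many peaks as the genome, and by gene number they held fewer, with a single peak behind both figures.

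Promoter base composition differed between bound and unbound genes, so the Hox genes were also set beside genes of like composition. A promoter was called CpG-rich if the bases within 500 bp of any start site had an observed over expected CpG of at least 0.6 and a GC content of at least 55%. Of the bound coding genes 89.2% were CpG-rich, and of the unbound ones 33.0%. Among Hox genes 23 of 39 were CpG-rich, 59.0%, which is above the 43.6% of all coding genes. By cluster these were 8 of 11 in Hoxa, 4 of 10 in Hoxb, 4 of 9 in Hoxc and 7 of 9 in Hoxd. Of the 23, Hoxa4 alone was bound, 4.35% (0.110% to 21.9%), beside 3673 of 9565 CpG-rich coding genes, 38.4% (37.4% to 39.4%). None of the 16 other Hox genes was bound (upper limit 20.6%), and the share of all coding genes without a CpG-rich promoter was 3.60%. With a stricter CpG ratio of at least 0.75, 1 of 15 Hox genes was bound (6.67%, 0.169% to 31.9%), beside 47.3% of 6364 coding genes. The upper ends of the intervals for CpG-rich Hox genes lie below the shares of coding genes of like composition. Genes of a cluster share their neighbourhood and are not independent, which these intervals do not take into account.

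**Figure D2:**
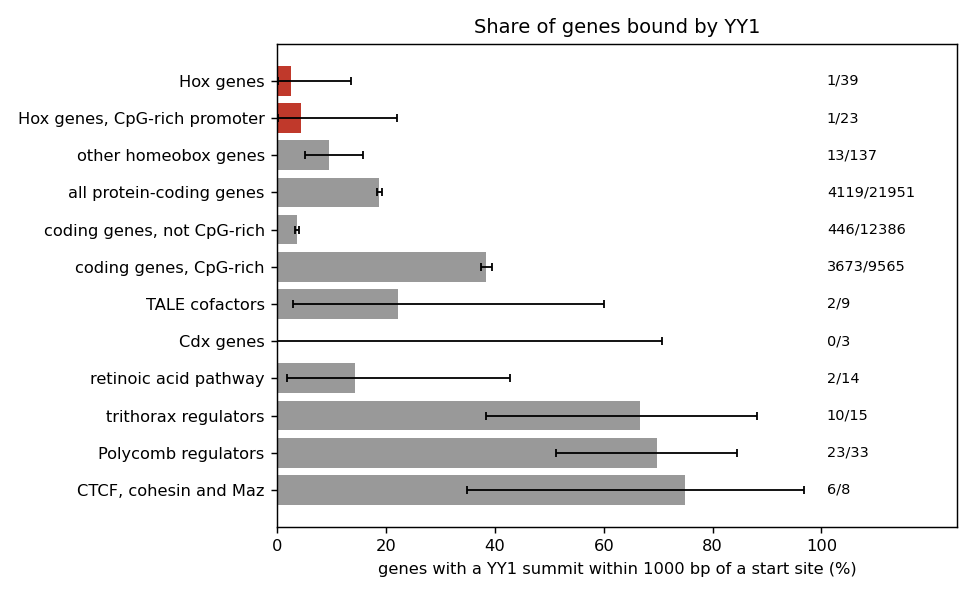
Bars give the percent of genes with a YY1 summit within 1000 bp of a start site for the Hox genes (red) and for other gene sets (grey), with bound and total genes printed at the right. Lines are 95% Clopper-Pearson intervals of counting error. The Hox genes stand at 1 of 39 and their Polycomb regulators at 23 of 33.

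At the most upstream start of each gene, Hoxa4 was among the Hox promoters richest in GC and CpG. Its GC content was 73.7% and its CpG ratio 0.919. Hoxa13, a gene of the posterior end that shapes the digits, had nearly the same composition, 73.8% and 0.931, and was unbound with its nearest summit 68.8 kb away. Hoxd13 (72.4% and 0.905) and Hoxd11 (70.3% and 0.914), which act in the limb, were unbound as well, with the nearest summit 757 and 771 kb away. Hoxa5 had the highest CpG ratio, 0.996, at a GC content of 54.5%. The lowest values were a GC content of 44.0% at Hoxb3 and a CpG ratio of 0.256 at Hoxd4. Over the 39 genes the median GC content was 55.9% and the median CpG ratio 0.678. The medians were 62.6% and 0.828 for bound coding genes and 53.2% and 0.445 for unbound ones, so that the Hox genes lay between. Soft-masked repeats covered a median of 11.0% of the Hox windows and 9.39% of those of all coding genes.

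**Figure D3:**
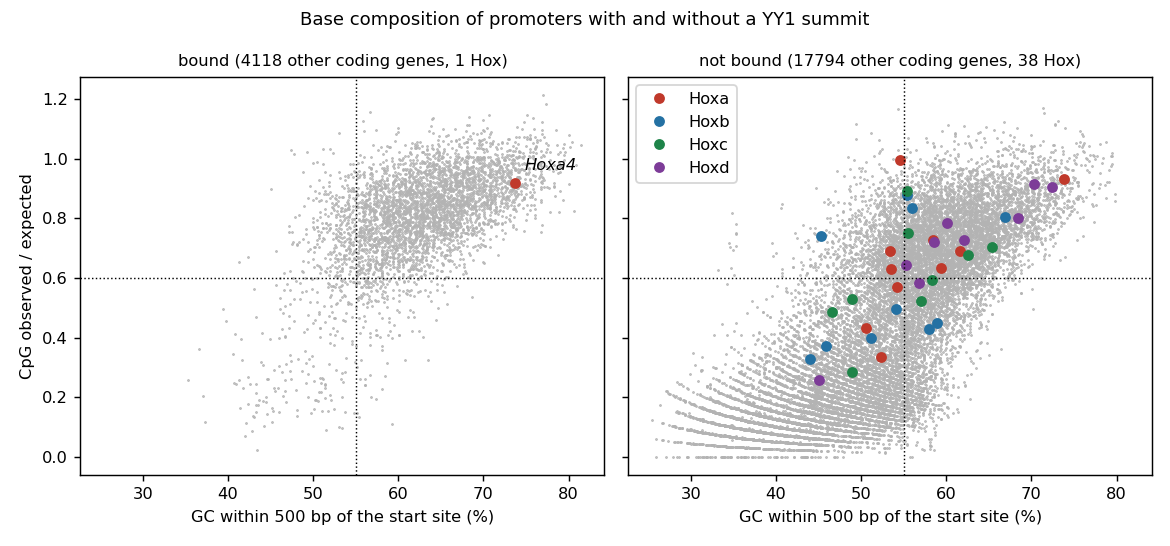
GC content (percent, x axis) against the observed over expected CpG ratio (y axis) within 500 bp of the most upstream start site, for Hox genes (coloured by cluster) over all other protein-coding genes (grey), bound genes on the left and unbound ones on the right, with dotted lines at the limits of a CpG-rich promoter. Hoxa4, at 73.7% and 0.919, is the Hox gene of the bound panel, and Hoxa13, Hoxd13 and Hoxd11 have similar values in the unbound one.

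AANATGGC occurred within 1000 bp of a start in 6 of 39 Hox genes, 15.4%, beside 7789 coding genes, 35.5%. AAGATGGC, the form with G at the open position, was found in 3 Hox genes (7.69%) and in 16.3% of coding genes. The core ATGGC was present in 38 of 39 Hox genes and in 97.3% of coding genes, so it separates almost nothing in windows of this length. None of the 6 Hox genes with AANATGGC was bound (upper limit 45.9%). Of coding genes with the motif 21.4% were bound, and of those without it 17.3%. Where the motif met a CpG-rich promoter the share was 43.8%, 1500 of 3428, and 3 Hox genes are of that kind.

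The 38 unbound Hox genes lay at very different distances from a summit, set by the cluster they belong to. In Hoxa the nearest summit was that of Hoxa4 for all 11 genes, at 0.284 to 68.8 kb with a median of 27.2 kb. In Hoxb the distances were 118 kb (Hoxb13) to 290 kb (Hoxb1), with a median of 222 kb. In Hoxc they were 138 kb (Hoxc4) to 252 kb (Hoxc13), with a median of 196 kb. All Hoxc distances are to the summit near Smug1, whose q of 0.0523 is the weakest of the peaks around the clusters. With peaks of q under 0.05, an alternative for the distances by cluster that was chosen after seeing the data, the Hoxc genes lay 271 kb (Hoxc4) to 384 kb (Hoxc13) from a summit, with a median of 328 kb, and the distances of the other clusters were the same. In Hoxd they were 757 kb (Hoxd13) to 852 kb (Hoxd1), with a median of 786 kb. Over all Hox genes the median was 206 kb, beside 93.7 kb for all coding genes. More than 100 kb from a summit were 28 of the 39 Hox genes and 48.7% of coding genes. More than 500 kb from one were 9 Hox genes, which are the whole Hoxd cluster, and 19.7% of coding genes.

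**Figure D4:**
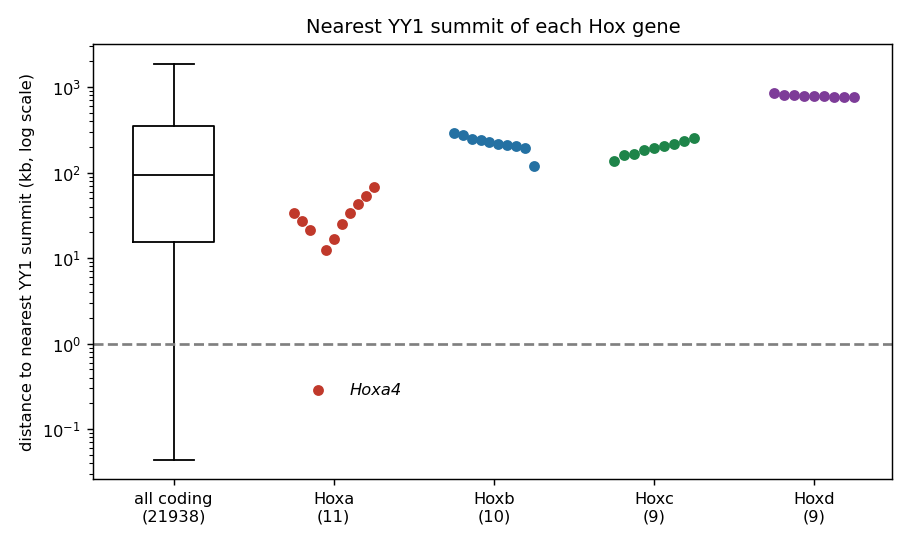
Distance in kb (log scale) from each gene to the nearest YY1 summit, with points for the Hox genes by cluster, in order of their number from left to right, and a box (median and quartiles, whiskers from the 5th to the 95th percentile) for all protein-coding genes except the 13 mitochondrial ones. The dashed line marks 1 kb. Hoxd genes sit between 757 and 852 kb, and Hoxa4, at 0.284 kb, stands apart from the other Hoxa genes.

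Widening the view to 200 kb beyond each cluster gave 4 further peaks. On the low side of Hoxa, 143 kb out, a peak of 13 fragments and a fold enrichment of 5.49 lay 48 bp from the start of the noncoding gene Gm44077 and 100 bp upstream of Skap2, an adaptor of Src family kinases. On the low side of Hoxb, the peak of Ube2z, a ubiquitin-conjugating enzyme, stood 129 kb out with 16 fragments and a fold enrichment of 6.70. The peak of Atp5g1, which encodes subunit c of the ATP synthase, was 118 kb out with 14 fragments and 5.79. On the high side of Hoxc, 136 kb out, a weak peak of 9 fragments, a fold enrichment of 3.43 and q = 0.0523 lay 5694 bp upstream of Smug1, a DNA repair glycosylase. Hoxd had no peak in this range.

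The stretch between the summits on each side was measured for every cluster. Hoxd was in the longest of these, 1.75 Mb with 14 coding genes, of which 9 were Hox genes. Hoxb was in a stretch of 713 kb with 15 coding genes, and Hoxc in one of 654 kb with 15. The Hoxc stretch ends at the weak peak near Smug1, with q = 0.0523. With peaks of q under 0.05, an alternative chosen after seeing the data, it was 787 kb and the Hoxb stretch was the same. The shares below were not computed for that limit. Hoxa was divided by the Hoxa4 peak into a stretch of 179 kb with 3 Hox genes and one of 448 kb with 8. Over all 4660 stretches between neighbouring summits the median was 146 kb with 2 coding genes. Longer than the Hoxd stretch were 7.88% of them, longer than that of Hoxc 19.3% and longer than that of Hoxb 18.0%. Longer than the Hoxa stretches were 45.3% (the one with 3 Hox genes) and 25.5% (the one with 8). More coding genes than in the stretches of Hoxb and Hoxc were found in 4.27%, more than in that of Hoxd in 4.96%, and more than in those of Hoxa in 31.0% and 7.90%. The fullest stretch of the genome held 243 coding genes.

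**Figure D5:**
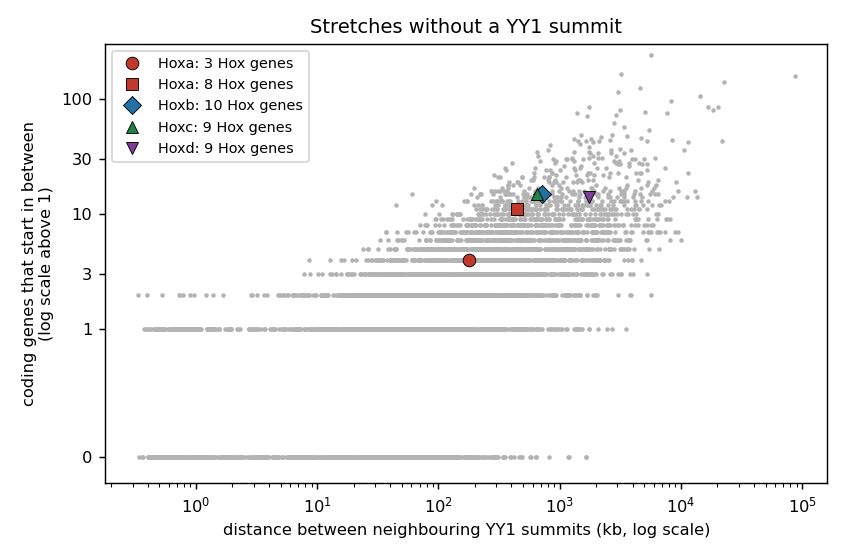
Each grey dot is a stretch between neighbouring YY1 summits, by its length in kb (x axis, log scale) and the number of coding genes that start in it (y axis, log scale above 1). Coloured marks are the 5 stretches that hold Hox genes, of which Hoxd is the longest at 1.75 Mb.

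The same intervals hold 60 other annotated genes, 46 inside the clusters and 14 within 50 kb, and none had a summit within 1000 bp. They include 4 coding genes, 7 microRNA genes and 23 long noncoding RNA genes, at 8.93 to 843 kb from a summit. Gm29430, an antisense gene, was the nearest. For coding genes the background was 18.8%. For the other types it was not computed, so the count of bound genes cannot be read against a background. The microRNAs of the Mir10 and Mir196 families are known to repress Hox messages. Mir196b lay 38.1 kb from a summit, Mir615 158 kb, Mir196a-1 189 kb, Mir196a-2 199 kb and Mir10a 241 kb, while Mir10b was 815 kb away. Gm44463, also listed as a microRNA gene, was 790 kb away. Among the long noncoding RNA genes of the clusters, Hotairm1 was 33.6 kb, Hottip 70.7 kb, Hotair 225 kb and Haglr 839 kb from the nearest summit. Evx2, a homeobox gene 8.75 kb beyond Hoxd13, was 748 kb from one. Evx1, its counterpart 52.6 kb beyond Hoxa13, was 121 kb from a summit and was not bound.

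Outside the clusters, bound genes returned. Within 1 Mb of the 4 clusters 21 of 108 coding genes were bound, 19.4%, which is close to the background of 18.8%. These were 4 of 9 around Hoxa, 9 of 42 around Hoxb, 5 of 49 around Hoxc and 3 of 8 around Hoxd. Of the first coding gene beyond each of the 8 ends, Skap2 alone was bound. Unbound were Evx1, Ttll6 and Skap1 beside Hoxa and Hoxb, Calcoco1 and Smug1 beside Hoxc, and Evx2 and Mtx2 beside Hoxd. The first bound gene on the high side of Hoxa was Hibadh, a mitochondrial dehydrogenase of valine breakdown, 380 kb out with 15 fragments and a fold enrichment of 5.50. Beyond Hoxb it was Atp5g1 on the low side and Cbx1, a heterochromatin protein, 421 kb out on the high side with 13 fragments and 4.70. Below Hoxc it was Tarbp2, a partner of Dicer, 403 kb out with 25 fragments and 6.54. None of the 16 coding genes between Hoxc and the chromosome end was bound. Beyond Hoxd it was Atp5g3, 757 kb out with 12 fragments and 5.13, and Hnrnpa3, an RNA-binding protein, 894 kb out with 20 fragments and 5.30.

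The clusters arose by duplication of a whole chromosome region, so that several families have a member near more than one of them. A list of 24 such genes in 9 families, chosen after the neighbours had been seen and given as a description, had 10 bound. The backgrounds are 18.8% of all coding genes and 38.4% of CpG-rich ones, and the CpG-rich genes of the list were not counted. Of the subunit c genes, Atp5g1 (Hoxb) and Atp5g3 (Hoxd) were bound at 5.79 and 5.13, and Atp5g2 (Hoxc) was not. Of the heterochromatin protein 1 genes, Cbx3 (Hoxa) and Cbx1 (Hoxb) were bound at 6.39 and 4.70, and Cbx5 (Hoxc) was not. Of the hnRNP A genes, Hnrnpa2b1 (Hoxa) and Hnrnpa3 (Hoxd) were bound at 6.39 and 5.30, and Hnrnpa1 (Hoxc) was not. Hnrnpa2b1 and Cbx3 start from a shared promoter and their value is the same peak. Sp2 (Hoxb, 4.81) and Sp3 (1.69 Mb from Hoxd, 6.18) were bound, while Sp1 (Hoxc) was not. Of the other families, the NF-E2 family had 1 bound of 4 (Nfe2l2 beside Hoxd, 5.12) and the Skap genes 1 of 2 (Skap2). The sorting nexins Snx10 and Snx11, the COPI subunits Copz1 and Copz2, and Calcoco1 and Calcoco2 had none. None of the listed members beside Hoxc was bound.

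Many of the genes that act on Hox genes had a YY1 peak at their own promoter. Of 82 listed regulators, cofactors and upstream factors 43 were bound, 52.4% (41.1% to 63.6%). The Hox genes themselves stood at 1 of 39, with a CpG-rich promoter in 23 of the 39, and the difference between the sets was not tested. Genes of a cluster are not independent, and the lists were chosen with earlier results of these data known. The backgrounds are 18.8% of all coding genes and 38.4% of CpG-rich ones, and 68 of the 82 have a CpG-rich promoter, so the second is the closer comparison. Of the Polycomb genes, which encode the complexes that silence Hox genes, 23 of 33 were bound, 69.7% (51.3% to 84.4%), and 31 of the 33 are CpG-rich, for which the background is 38.4%. The highest values were at Bap1, a deubiquitinase that removes the mark of Polycomb complex 1, with 27 fragments and a fold enrichment of 11.0, and at Mtf2 and Yaf2, with 7.49 each. Pcgf1 had 6.70 and Phc2 6.39. Named after their values were seen, Ezh2, the methyltransferase of Polycomb complex 2, was not bound, whereas its partners Eed and Suz12 were, at 5.38 and 5.04.

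Of the trithorax genes 10 of 15 were bound, 66.7% (38.4% to 88.2%). CpG-rich were 13 of the 15, and the interval reaches down to the 38.4% of all CpG-rich coding genes. Rbbp5, a core subunit of the histone H3 lysine methyltransferase complexes, had 29 fragments and a fold enrichment of 11.8. Kmt2a, the methyltransferase that maintains Hox expression, had 33 fragments and 11.7. Ash1l, Dot1l and Kmt2b followed with 8.68, 7.04 and 6.70. Of the genes for loop architecture 6 of 8 were bound (interval 34.9% to 96.8%, which includes 38.4%), and all 8 are CpG-rich. The fold enrichment was 7.04 at Ctcf, 5.71 at the cohesin loader gene Nipbl, 5.55 at Stag1, 5.03 at Maz and 4.80 at Rad21.

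Of the TALE cofactors, homeodomain proteins that bind DNA together with Hox proteins, 2 of 9 were bound, 22.2% (2.81% to 60.0%), Pbx2 at 6.70 and Pknox2 at 4.59. Of the retinoic acid pathway, which switches on anterior Hox genes, 2 of 14 were bound, 14.3% (1.78% to 42.8%), the receptor genes Rxrb at 6.56 and Rara at 5.52. Both intervals include the background of 18.8%. None of the 3 Cdx genes, which encode activators of posterior Hox genes, was bound (upper limit 70.8%). Homeobox genes of other families had 13 bound of 137, 9.49% (5.15% to 15.7%), beside 1 of 39 Hox genes, a difference that was not tested. The interval lies below the background of 18.8%, and below 38.4%, although 98 of the 137 have a CpG-rich promoter. Pou2f1 and Tgif1 had 6.70 each and Adnp had 5.38, and Lbx1, Tlx2 and Zfhx3 shared 5.13.

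The limits of detection bear on each gene called unbound. At the most frequent local background, 1.54 fragments at 29.3% of peaks, 8 fragments were needed to pass the p limit of 0.0001 and 7 did not pass, so a site of up to 7 fragments would be missed. From that background the depth was computed as 13357713 fragments. Where the local background is higher, more fragments can be needed, and the background at the unbound Hox genes is not known from a list of peaks. A Hox gene called unbound had no peak that passed the limit, which does not show that YY1 is absent from it.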

How the data were processed

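Chromatin from MuSCs was immunoprecipitated with an antibody to YY1. After trimming, the authors aligned the reads to mm10 (bowtie2), removed redundant reads and called peaks against the background library with MACS2 at a p limit of 0.0001. Versions are not given in the sources used here. The deposited list holds 4681 peaks. The deposited fold enrichment is a ratio, fragments at the summit plus 1 over local background plus 1, as MACS2 wrote it for the authors. Significance was deposited as −log10 of the p-value and of the q-value, and the deposited integer score was not used. A higher depth would let weaker sites pass the same p limit.

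The number of fragments and the local background were recovered from fold enrichment and p-value, and a whole number of fragments gave back the p-value within 0.001 (log10) for all 4681 peaks. The depth of 13357713 fragments rests on the most frequent background, the narrowest peak (215 bp) and the preset mouse genome size of MACS2. Summits were placed against start sites of the GENCODE M21 basic annotation. Sequences came from GRCm38.p6, and RefSeq promoters of that build matched 22 of the 39 Hox genes. Intervals of shares are 95% exact Clopper-Pearson intervals and reflect counting error alone. There was 1 library, so no test was made between groups.

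Named in the text are all Hox genes, the genes nearest to peaks in the intervals, the first coding and first bound coding gene beyond each cluster end, bound genes and microRNAs inside the spans, and of each list the 5 bound genes with the highest fold enrichment. Long noncoding RNA genes, gene families beside the clusters and other genes were named after their values were seen. Values of some genes that this rule covers are not reported here. The members and lists were chosen with earlier results of these data known. Of 138 listed homeobox genes of other families, 137 were found. Placement, motif search and recovery of fragments were tested on simulated data. Other promoter windows, stricter limits on q and fold enrichment, placement by overlap, a single start per gene, other flanks, other motif forms and the comprehensive annotation were tried as alternatives. The tools were matplotlib 3.10.9, pysam 0.24.0, scipy 1.17.1, pandas 2.3.3 and numpy 2.4.6 under Python 3.11.15.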

Additional observations from a re-analysis of the deposited data

How the results depend on the processing

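Of 80 alternative values, 69 stayed within 1.5 times the reported one and 11 moved further. Hoxa4 was the bound Hox gene under all promoter windows, under both limits on q, with placement by overlap, with a single start per gene and with the comprehensive annotation, which was chosen after seeing the data. Raising the minimum fold enrichment to 5 left 0 bound Hox genes, 0 peaks inside the spans and 0 in the spans with 50 kb beyond, since the Hoxa4 peak has 4.73. That limit left 2445 bound coding genes (11.1%), 2209 of them with a CpG-rich promoter, 27 bound regulators and 7 bound homeobox genes of other families. A reach of 200 kb gave 5 peaks. With peaks of q under 0.05 the median distance from a Hoxc gene to a summit rose from 196 to 328 kb, and that over all Hox genes from 206 to 271 kb. The motif count was 3 for AAGATGGC, 38 for ATGGC and 14 within 2000 bp of a start. No paired analysis was possible because there was 1 YY1 library. For the same reason no replicate could be left out. Depth limits the statement on each unbound gene, since at the most frequent background a site of up to 7 fragments is not called.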

Other observations

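Pax7, the homeobox gene that drives Cre in these mice, was looked up after the values had been seen. Its peak had a fold enrichment of 2.65, with 117 fragments over a local background of 43.5 fragments, and its summit lay 703 bp downstream of the start. Both numbers are far above those of the Hoxa4 peak, which had 11 fragments over 1.54.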
